A study of Homo sapiens with 6 samples.

Results

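The amino acid response genes controlled by ATF4 and the endoplasmic reticulum (ER) genes of the unfolded protein response were followed in 3 stable lines of HCT116, a human colon carcinoma cell line. The set holds 35 genes chosen by symbol from known roles in these responses, out of 20026 gene rows. Earlier results of these data were known when they were chosen, so the counts below do not come from an independent list. All 35 symbols were found. They were divided by role into an amino acid arm of 19 genes and an ER chaperone arm of 16 genes. The first line over-expressed the TEAD4 mutant K178R and the second over-expressed wild type TEAD4, a DNA-binding factor that acts with the Hippo pathway coactivators YAP1 and TAZ. The third line was labelled control, and what it carried is not stated. Each line had 2 RNA-seq libraries, and no age, time or added agent is given for any of them. One of the wild type libraries, replicate 2, has TEAD5 in its genotype field and wild type TEAD4 in its title. Whether the libraries of a line are separate cultures is not stated, so each p-value reflects the spread between libraries, which may be technical.

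Cells that run short of amino acids, or whose ER fills with unfolded protein, activate kinases that phosphorylate the translation factor eIF2 alpha. This lowers protein synthesis but favours translation of ATF4, a bZIP transcription factor, so ATF4 activity is set largely at the level of protein and not of its RNA. ATF4 induces amino acid transporters and synthesis enzymes. ER stress also acts through IRE1 (gene ERN1), which splices XBP1 RNA, and through ATF6, and both of these raise ER chaperones, protein disulfide isomerases and genes for the disposal of misfolded ER proteins. The values here are totals per gene and do not separate spliced from unspliced XBP1.

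Values are deposited FPKM, a measure of RNA level per length of transcript and per size of library. TEAD4 stood at 71.8 ± 0.745 FPKM in the K178R line, 85.4 ± 1.37 FPKM in the wild type line and 17.1 ± 0.666 FPKM in the control line (mean ± SD, n = 2 libraries each). The epithelial markers EPCAM, KRT8, KRT18 and CDH1 were present in every library, and EPCAM lay between 146 and 153 FPKM. The keratins differed between lines, with KRT8 at 1381, 770.3 and 1298 FPKM and KRT18 at 889.7, 456.5 and 690.6 FPKM in K178R, wild type and control, and the part of this in the results below was not tested. CDX1 was listed at 0 and VIL1 did not exceed 0.0293 FPKM, while the highest of 9 leukocyte, endothelial and fibroblast markers reached 0.112 FPKM. The number of reads is unknown. Depth relative to control replicate 1, read from the steps of the lowest values, lay between 0.927 and 1.05.

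Promoter sequences of the members were compared first, because the arms are read by different factors. RefSeq windows (GRCh38.p14), from 250 bases before to 50 after each gene's start, were found for 32 of the 35 members, 16 in each arm. SLC7A11, SHMT2 and PSPH were not among them. For 26 of the 32, the bases after a start matched the first part of a GENCODE 29 transcript of the gene. Both strands were searched. The ER stress response element, which ATF6 and XBP1 bind together with NF-Y, was taken as CCAAT and CCACG with 9 bases between them. It was present in 6 of 16 ER arm genes and in 0 of 16 amino acid arm genes, and in 0.0916% of all 27305 genes with a window. Its second form, ATTGG and CCACG with 1 base between them, was present in HERPUD1 and SDF2L1 and in 0.0696% of all genes. The 2 forms did not overlap each other in any member. The C/EBP-ATF response element TGATGCAA, to which ATF4 binds as a dimer with C/EBP family partners, was present in CHAC1 and SLC1A5 of the amino acid arm and in HERPUD1 of the ER arm, and in 1.08% of all genes. TGACGTGG, an unfolded protein response element, matched no member and 0.927% of all genes. Each match is a run of letters and not a measured binding site, and the members were chosen as known genes of these responses.

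The matches are shown 5′ to 3′ on the strand of the gene with 20 bases on each side, since the counts above rest on these letters. Capitals mark the matched letters. A match to the opposite strand reads in reverse complement.
HSPA5, chr9:125241371-125241429, minus strand: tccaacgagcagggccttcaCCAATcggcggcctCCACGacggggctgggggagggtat
HSP90B1, chr12:103930196-103930254, plus strand: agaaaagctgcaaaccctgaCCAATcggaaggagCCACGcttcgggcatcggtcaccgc
HSP90B1, chr12:103930301-103930359, plus strand, matched on the opposite strand: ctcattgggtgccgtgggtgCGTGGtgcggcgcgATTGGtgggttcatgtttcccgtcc
XBP1, chr22:28800583-28800641, minus strand: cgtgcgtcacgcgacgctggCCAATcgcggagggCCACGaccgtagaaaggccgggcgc
CALR, chr19:12938364-12938422, plus strand, matched on the opposite strand: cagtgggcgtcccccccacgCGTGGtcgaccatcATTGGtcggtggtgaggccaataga
CANX, chr5:179698758-179698816, plus strand: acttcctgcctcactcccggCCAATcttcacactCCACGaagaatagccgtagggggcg
PDIA6, chr2:10812833-10812891, minus strand: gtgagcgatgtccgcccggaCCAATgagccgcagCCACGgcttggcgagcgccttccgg
HERPUD1, second form, chr16:56932005-56932055, plus strand: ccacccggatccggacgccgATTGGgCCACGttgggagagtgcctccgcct
SDF2L1, second form, chr22:21642094-21642144, plus strand, matched on the opposite strand: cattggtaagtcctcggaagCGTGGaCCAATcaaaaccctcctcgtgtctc
HERPUD1, C/EBP-ATF element, chr16:56931946-56931993, plus strand, matched on the opposite strand: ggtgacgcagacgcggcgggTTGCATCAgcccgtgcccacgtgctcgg
CHAC1, C/EBP-ATF element, chr15:40953242-40953289, plus strand, matched on the opposite strand: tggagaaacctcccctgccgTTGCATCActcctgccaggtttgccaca
SLC1A5, C/EBP-ATF element, chr19:46784884-46784931, minus strand: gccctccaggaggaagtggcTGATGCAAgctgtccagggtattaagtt

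Relative to the gene start, the ER stress response element lay at bases -66 to -48 in HSPA5 and at -52 to -34 in XBP1. HSP90B1 carried a pair of matches, on opposite strands. HERPUD1 was the one member with matches to both an ER stress element and the C/EBP-ATF element. CANX has several RefSeq starts whose windows overlap, and its match is drawn for the lowest start that lies downstream of it.

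**Figure D1:**
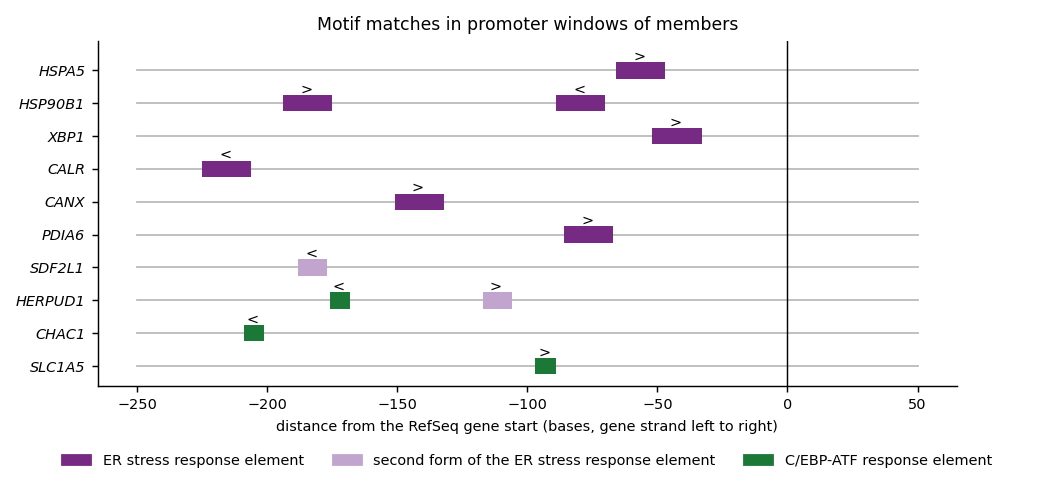
Positions of the motif matches in promoter windows of 10 members, as distance in bases from the RefSeq gene start (x axis), from 250 bases before to 50 after it. Bars are matches coloured by motif, and the arrow above each gives its strand relative to the gene; the ER stress element of HSPA5 sits at bases -66 to -48.

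In the amino acid arm, ATF5, STC2, CHAC1 and 4 amino acid transporter genes fell with wild type TEAD4, while PPP1R15A, ASNS and DDIT4 rose. ATF4 RNA was not called in any comparison on the deposited scale. With K178R, the cystine transporter gene SLC7A11 rose against control, as did PPP1R15A, ASNS and SLC7A5, while ATF5 and SLC38A2 fell. Set directly against the wild type line, the K178R line was higher in SLC7A5, SLC7A11, CHAC1, ATF5, SLC3A2 and STC2. It was also higher in PSAT1 and SLC1A5, and lower in DDIT4. Of the 19 genes, 18 passed the filter of at least 0.5 FPKM in at least 2 libraries. VLDLR, a lipoprotein receptor gene, was listed at 0 in all 6 libraries. Rows at 0 in every library numbered 4066. Whether such a 0 means no RNA or no quantification of the gene is not known.

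With wild type TEAD4 against control, 3 of 18 tested amino acid arm genes (16.7%) were called higher and 7 (38.9%) lower, at a limma adjusted p under 0.05. Of all 11445 genes tested, 37.6% were called higher and 12.2% lower. The median change on the log2(FPKM + 1) scale was -0.10 for the arm and 0.09 for all genes. For K178R against control, 4 (22.2%) were called higher and 2 (11.1%) lower, beside 11.7% and 11.1% of all genes, with medians of 0.02 for the arm and 0.002 for all genes. For K178R against wild type, 8 (44.4%) were called higher and 1 (5.56%) lower, beside 10.4% and 34.5% of all genes, with medians of 0.12 and -0.08. These comparisons share libraries in pairs, so their counts are not independent.

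The counts depend on how libraries are put on one scale. Median-of-ratios scaling moved the median change of all genes by -0.10 for wild type against control and by 0.09 for K178R against wild type. After it, 0 amino acid arm genes were higher and 12 lower with wild type TEAD4, beside 22.4% and 25.3% of all genes. K178R against wild type then had 13 higher and 0 lower, beside 22.8% and 19.7% of all genes. For K178R against control the arm gave 4 higher and 2 lower on either scale, beside 10.9% and 11.9% of all genes after the scaling.

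Among the transcription factors of the arm, ATF4 read 49.5 and 50.7 FPKM with K178R, 49.3 and 49.6 FPKM with wild type TEAD4 and 50.3 and 49.4 FPKM in control. The 6 libraries overlap, and the change with wild type TEAD4 against control had a 95% interval of -0.08 to 0.06 on the log2 scale. After median-of-ratios scaling ATF4 was called lower with wild type TEAD4 (log2 -0.13, limma adjusted p = 0.00705), so its level holds only relative to the deposited scale.

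ATF5, a bZIP factor related to ATF4, had 14.5 and 15.0 FPKM with K178R, 11.8 and 10.5 FPKM with wild type TEAD4 and 18.3 and 19.2 FPKM in control. The 3 lines did not overlap, with wild type lowest, K178R between and control highest. ATF5 fell by 0.70 on the log2 scale with wild type TEAD4 (SE 0.05, limma adjusted p = 1.0e-04). It also fell with K178R against control (log2 -0.32, SE 0.05, limma adjusted p = 0.00615), and it was higher in K178R than in wild type (log2 0.38, SE 0.05, limma adjusted p = 0.00164).

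DDIT3, which encodes the stress factor CHOP, read 4.68 and 5.28 FPKM with K178R, 4.35 and 4.50 FPKM with wild type TEAD4 and 4.88 and 5.33 FPKM in control. The wild type libraries were the lowest, but no comparison passed the test, and the change against control was log2 -0.17 (95% interval -0.32 to -0.02, limma adjusted p = 0.0654). TRIB3, a pseudokinase induced by ATF4 and CHOP, stood at 13.8, 12.6 and 13.3 FPKM in K178R, wild type and control and was not called. After median-of-ratios scaling, DDIT3 and TRIB3 were both called lower with wild type TEAD4 (log2 -0.27 and -0.18).

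CHAC1, an enzyme that degrades glutathione and a well known ATF4 target, was the lowest of the tested genes of the arm in FPKM. It read 1.69 and 1.45 FPKM with K178R, 0.935 and 0.827 FPKM with wild type TEAD4 and 1.52 and 1.36 FPKM in control. Both wild type libraries lay below all others, while K178R and control overlapped. CHAC1 fell with wild type TEAD4 (log2 -0.37, SE 0.07, limma adjusted p = 0.00514) and was higher in K178R than in wild type (log2 0.45, SE 0.07, limma adjusted p = 0.00284). The pseudocount of 1 FPKM damps such a low gene, and at 0.1 FPKM the log2 changes were -0.65 and 0.77.

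PPP1R15A encodes GADD34, the phosphatase subunit that removes the phosphate from eIF2 alpha again. It had 13.9 and 15.1 FPKM with K178R, 14.2 and 14.2 FPKM with wild type TEAD4 and 12.1 and 11.5 FPKM in control. Both TEAD4 lines lay above control and overlapped each other. PPP1R15A rose with wild type TEAD4 (log2 0.25, SE 0.05, limma adjusted p = 0.0046) and with K178R (log2 0.27, SE 0.05, limma adjusted p = 0.00702). The first of these calls ended after median-of-ratios scaling (adjusted p = 0.0536).

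The amino acid transporter genes were next. SLC7A5, the light chain of the large neutral amino acid transporter LAT1, read 174 and 174 FPKM with K178R, 122 and 122 FPKM with wild type TEAD4 and 156 and 159 FPKM in control. The lines were fully separated, with wild type below control and K178R above it. SLC7A5 fell with wild type TEAD4 (log2 -0.37, SE 0.02, limma adjusted p = 3.8e-05) and rose with K178R (log2 0.14, SE 0.02, limma adjusted p = 0.00505). Between the TEAD4 lines it was log2 0.51 higher in K178R (SE 0.02, limma adjusted p = 2.3e-05).

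SLC3A2, the heavy chain that LAT1 shares with the cystine transporter, was called in the direction of SLC7A5 in 2 of the 3 comparisons. It had 125 and 126 FPKM with K178R, 98.0 and 101 FPKM with wild type TEAD4 and 119 and 125 FPKM in control. The wild type libraries were the lowest, and K178R overlapped control. SLC3A2 fell with wild type TEAD4 (log2 -0.29, SE 0.03, limma adjusted p = 3.9e-04) and was higher in K178R than in wild type (log2 0.33, SE 0.03, limma adjusted p = 3.5e-04).

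SLC7A11, the light chain of the cystine and glutamate exchanger that feeds glutathione synthesis, read 8.03 and 7.67 FPKM with K178R, 4.93 and 5.84 FPKM with wild type TEAD4 and 5.32 and 5.29 FPKM in control. K178R lay above both other lines, which overlapped. SLC7A11 rose with K178R against control (log2 0.49, SE 0.07, limma adjusted p = 0.00303) and against wild type (log2 0.47, SE 0.07, limma adjusted p = 0.00179).

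SLC38A2, a sodium-coupled transporter of small neutral amino acids, had 136 and 131 FPKM with K178R, 138 and 138 FPKM with wild type TEAD4 and 169 and 171 FPKM in control. No TEAD4 library reached the control level. SLC38A2 fell with wild type TEAD4 (log2 -0.30, SE 0.03, limma adjusted p = 1.6e-04) and with K178R (log2 -0.35, SE 0.03, limma adjusted p = 1.6e-04), and the TEAD4 lines did not differ by the test (95% interval of the log2 difference -0.11 to 0.02). SLC1A5, the glutamine exchanger, has a C/EBP-ATF element before a RefSeq start that lies inside the gene. It stood at 61.2 ± 0.162 FPKM with K178R, 56.1 ± 1.28 FPKM with wild type TEAD4 and 62.3 ± 0.754 FPKM in control. It fell slightly with wild type TEAD4 (log2 -0.15, limma adjusted p = 0.00419). SLC1A5 was higher in K178R than in wild type (log2 0.12, limma adjusted p = 0.0108), a call that ended without wild type replicate 2 or K178R replicate 1 (highest adjusted p = 0.0563).

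Among the synthesis enzymes, ASNS, asparagine synthetase, stood at 33.7, 31.2 and 28.7 FPKM in K178R, wild type and control and rose with K178R (log2 0.23, SE 0.04, limma adjusted p = 0.00652). Its call with wild type TEAD4 (log2 0.12, limma adjusted p = 0.0378) ended in 9 of 15 alternatives, among them the fits without control replicate 1, control replicate 2 or wild type replicate 2, and median-of-ratios scaling gave log2 -0.001. Of the serine pathway enzymes, PHGDH (4.83, 4.44 and 4.98 FPKM), PSPH (11.2, 11.3 and 10.4 FPKM) and the mitochondrial SHMT2 (55.5, 59.1 and 56.3 FPKM, each in K178R, wild type and control) were called in no comparison on the deposited scale. After median-of-ratios scaling PHGDH was called lower with wild type TEAD4 (log2 -0.237, limma adjusted p = 0.00818). It was then higher in K178R than in wild type (log2 0.193, limma adjusted p = 0.0216). That scaling also called PSAT1 lower with wild type TEAD4 (log2 -0.167, limma adjusted p = 0.00503). PSAT1 stood at 87.1, 79.6 and 82.2 FPKM and was higher in K178R than in wild type (log2 0.13, limma adjusted p = 0.0145). That call ended without the mean-variance trend in the fit, and without wild type replicate 2 or either K178R library (log2 0.104 to 0.239 over the alternatives).

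STC2, a secreted glycoprotein induced by ATF4, had 13.1 and 11.8 FPKM with K178R, 9.85 and 9.84 FPKM with wild type TEAD4 and 13.6 and 13.9 FPKM in control. The wild type libraries were lowest and the control libraries highest. STC2 fell with wild type TEAD4 (log2 -0.44, SE 0.05, limma adjusted p = 4.8e-04) and was higher in K178R than in wild type (log2 0.31, SE 0.05, limma adjusted p = 0.0026). DDIT4, an inhibitor of the growth kinase complex mTORC1 that also responds to other stresses, stood at 21.5, 25.7 and 23.1 FPKM in K178R, wild type and control. The K178R line was below wild type (log2 -0.24, limma adjusted p = 0.00851), a call that ended under median-of-ratios and upper-quartile scaling. Its rise with wild type TEAD4 (log2 0.15, limma adjusted p = 0.049) held in 2 of 15 alternatives.

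**Figure D2:**
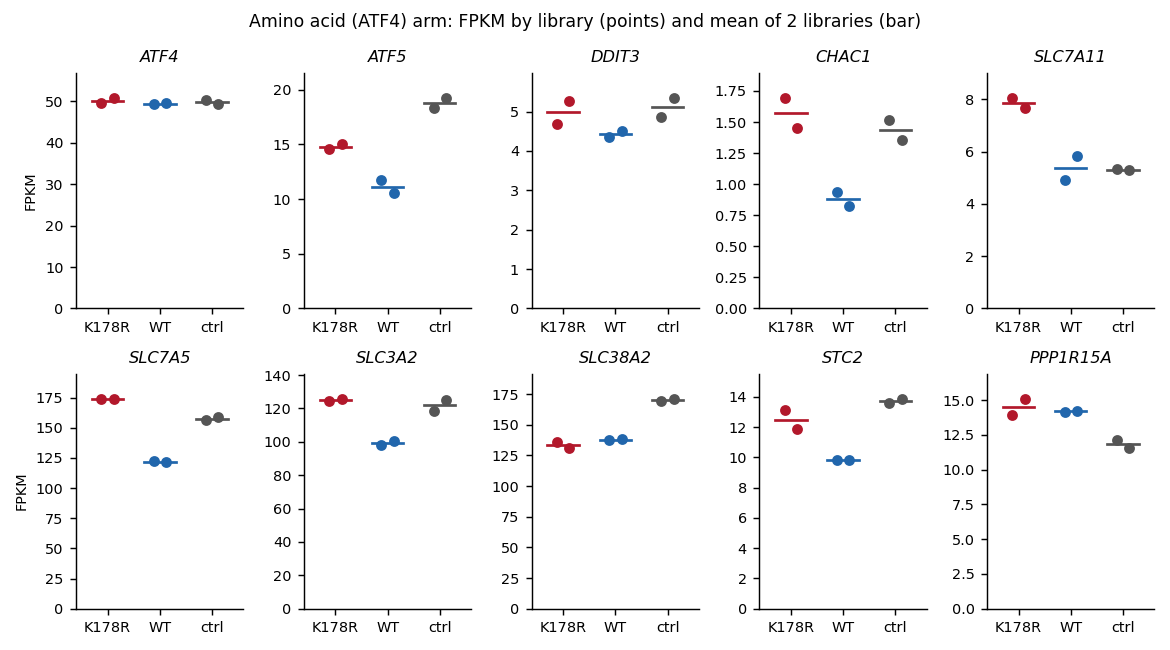
FPKM (y axis, from 0) of 10 amino acid arm genes in each library (points), with the mean of the 2 libraries of a line as a bar, for K178R, wild type TEAD4 (WT) and control (ctrl). The wild type libraries lie below all others for ATF5, CHAC1, SLC7A5, SLC3A2 and STC2, and K178R lies above both other lines for SLC7A11 and SLC7A5, while the ATF4 points overlap.

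In the ER chaperone arm, HERPUD1, CREB3L2, DNAJB9, DNAJC3, XBP1, EIF2AK3, HSPA5 and SEL1L rose with wild type TEAD4, while the lectin chaperone CANX and the HSP90 paralog HSP90B1 fell. With K178R, CREB3L2, HERPUD1, DNAJC3, HSPA5 and HSP90B1 rose and CANX fell. All 16 genes passed the filter, with control means between 1.97 and 281 FPKM.

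With wild type TEAD4 against control, 8 of 16 ER arm genes (50%) were called higher and 2 (12.5%) lower, beside the 37.6% and 12.2% of all genes given above. The median change was log2 0.13, against 0.09 for all genes. For K178R against control, 5 (31.2%) were higher and 1 (6.25%) lower, beside 11.7% and 11.1% of all genes, with a median of 0.12. The count of higher genes was lower without either control library or without K178R replicate 2. Those fits leave a line with a single library, and fewer of all genes were called in them as well. For K178R against wild type, 2 (12.5%) were higher and 4 (25%) lower, beside 10.4% and 34.5%, with a median of -0.08, the same as for all genes. After median-of-ratios scaling 7 ER arm genes were higher and 5 lower with wild type TEAD4, beside 22.4% and 25.3% of all genes. In K178R against wild type 5 were then higher and 2 lower, beside 22.8% and 19.7% of all genes.

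The stress sensors and factors were followed first. XBP1 read 24.9 and 28.7 FPKM with K178R, 30.9 and 32.3 FPKM with wild type TEAD4 and 24.4 and 24.0 FPKM in control. The wild type libraries were the highest, and the K178R libraries spread between the other lines. XBP1 rose with wild type TEAD4 (log2 0.37, SE 0.06, limma adjusted p = 0.00214). Between the TEAD4 lines K178R was the lower (log2 -0.23, SE 0.06, limma adjusted p = 0.0181), and this call ended with no filter, under median-of-ratios scaling (adjusted p = 0.139) and upper-quartile scaling, and without wild type replicate 2 or K178R replicate 1.

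CREB3L2, an ER-anchored bZIP factor that is released by cleavage under ER stress, had 4.54 and 4.81 FPKM with K178R, 5.23 and 4.98 FPKM with wild type TEAD4 and 3.10 and 3.08 FPKM in control. Both TEAD4 lines lay above control. CREB3L2 rose with wild type TEAD4 (log2 0.58, SE 0.05, limma adjusted p = 1.7e-04) and with K178R (log2 0.47, SE 0.05, limma adjusted p = 9.5e-04), and the difference between the TEAD4 lines had a 95% interval of -0.23 to 0.01. It was the largest rise of any member with K178R within the ER arm.

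EIF2AK3, which encodes the ER kinase PERK that phosphorylates eIF2 alpha, read 3.15 and 3.08 FPKM with K178R, 3.43 and 3.60 FPKM with wild type TEAD4 and 2.62 and 2.70 FPKM in control. The lines were separated, with control lowest, and the rise passed the test with wild type TEAD4 (log2 0.30, SE 0.05, limma adjusted p = 0.00262). With K178R the change was log2 0.17 (95% interval 0.05 to 0.29, limma adjusted p = 0.055), and it passed with the stricter filter and without trend. ERN1, the gene of the sensor IRE1, stood at 2.20, 2.17 and 1.97 FPKM in K178R, wild type and control and was not called.

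Among the chaperones, HSPA5, the ER HSP70 known as BiP, read 141 and 141 FPKM with K178R, 156 and 157 FPKM with wild type TEAD4 and 129 and 126 FPKM in control. The lines did not overlap, with wild type highest and control lowest. HSPA5 rose with wild type TEAD4 (log2 0.30, SE 0.02, limma adjusted p = 9.8e-05) and with K178R (log2 0.14, SE 0.02, limma adjusted p = 0.00502). The K178R line was below wild type (log2 -0.15, limma adjusted p = 0.00181), a call that ended under median-of-ratios scaling (log2 -0.04, adjusted p = 0.167) and upper-quartile scaling.

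HSP90B1, the ER HSP90 known as GRP94, whose promoter carries the pair of ER stress elements shown above, had 242 and 247 FPKM with K178R, 214 and 209 FPKM with wild type TEAD4 and 225 and 229 FPKM in control. Unlike for HSPA5, wild type was lowest, K178R was highest and control lay between them. HSP90B1 was log2 0.21 higher in K178R than in wild type (SE 0.02, limma adjusted p = 7.5e-04). Against control it fell with wild type TEAD4 (log2 -0.10, limma adjusted p = 0.0112) and rose with K178R (log2 0.11, limma adjusted p = 0.0205). The first call ended without the mean-variance trend in the fit, and without control replicate 2 or wild type replicate 2. The second ended without that trend, with the controls averaged, and without any one of the control or K178R libraries. Over the alternatives the log2 changes were -0.225 to -0.086 and 0.091 to 0.121.

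Both HSP40 co-chaperones of BiP rose with wild type TEAD4. DNAJB9 had 4.90 and 4.64 FPKM with K178R, 6.64 and 7.00 FPKM with wild type TEAD4 and 4.25 and 4.39 FPKM in control. The wild type libraries stood above the rest. DNAJB9 rose with wild type TEAD4 (log2 0.56, SE 0.05, limma adjusted p = 1.9e-04) and was below wild type in K178R (log2 -0.44, SE 0.05, limma adjusted p = 7.1e-04). DNAJC3, which also inhibits eIF2 alpha kinases, read 8.10 and 8.81 FPKM with K178R, 9.57 and 8.90 FPKM with wild type TEAD4 and 6.44 and 6.80 FPKM in control. Both TEAD4 lines lay above control. DNAJC3 rose with wild type TEAD4 (log2 0.43, SE 0.06, limma adjusted p = 9.1e-04) and with K178R (log2 0.31, SE 0.06, limma adjusted p = 0.00831), the second call ending without control replicate 1 or K178R replicate 2 (highest adjusted p = 0.058).

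Of the lectin chaperones and disulfide isomerases, 3 of 4 carry an ER stress element. CALR, the most abundant member, stood at 270 ± 4.12 FPKM with K178R, 282 ± 2.95 FPKM with wild type TEAD4 and 281 ± 3.28 FPKM in control and was not called. CANX, its membrane-bound relative, stood at 132 ± 0.376 FPKM with K178R, 129 ± 2.84 FPKM with wild type TEAD4 and 143 ± 0.614 FPKM in control. CANX fell with wild type TEAD4 (log2 -0.15, limma adjusted p = 0.00256) and with K178R (log2 -0.12, limma adjusted p = 0.0157). The second call ended without trend, with the controls averaged, and without any one of the control or K178R libraries (log2 -0.132 to -0.112 over the alternatives). PDIA4 stood at 78.3, 74.7 and 73.7 FPKM in K178R, wild type and control and was not called. PDIA6 stood at 58.2, 52.5 and 56.1 FPKM and was higher in K178R than in wild type (log2 0.15, limma adjusted p = 0.0119), which ended without wild type replicate 2 or K178R replicate 1. SDF2L1, which acts with BiP co-chaperones, stood at 63.0, 68.1 and 64.4 FPKM and was not called. After median-of-ratios scaling CALR (log2 -0.12, adjusted p = 0.00509), PDIA6 (log2 -0.215, adjusted p = 0.0023) and PDIA4 (log2 -0.10, adjusted p = 0.0375) were called lower with wild type TEAD4. On that scale CANX (log2 0.142, limma adjusted p = 0.00435) and PDIA4 (log2 0.177, limma adjusted p = 0.00495) were called higher in K178R than in wild type.

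Of the genes for ER-associated degradation, HERPUD1 changed most. This ER membrane protein recruits the degradation machinery, and its promoter holds both the second ER stress element and the C/EBP-ATF element. HERPUD1 had 19.2 and 21.5 FPKM with K178R, 25.5 and 25.4 FPKM with wild type TEAD4 and 16.7 and 15.4 FPKM in control. The lines were separated, with wild type highest and control lowest. HERPUD1 rose with wild type TEAD4 (log2 0.63, SE 0.06, limma adjusted p = 1.8e-04) and was below wild type in K178R (log2 -0.31, SE 0.06, limma adjusted p = 0.00441). It rose with K178R against control too (log2 0.32, SE 0.06, limma adjusted p = 0.00735), with an adjusted p of 0.0505 without control replicate 2.

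SEL1L, the adaptor of the ubiquitin ligase HRD1, read 7.86 and 7.75 FPKM with K178R, 7.96 and 8.22 FPKM with wild type TEAD4 and 7.26 and 7.00 FPKM in control. Both TEAD4 lines lay above control by a small margin, and SEL1L was called higher with wild type TEAD4 (log2 0.16, limma adjusted p = 0.0169). The call ended after median-of-ratios scaling (log2 0.05, adjusted p = 0.336) and upper-quartile scaling. It also ended with the controls averaged and without control replicate 2 or wild type replicate 2. EDEM1, a mannosidase-like protein that marks misfolded glycoproteins, had 3.87 and 4.22 FPKM with K178R, 3.68 and 3.50 FPKM with wild type TEAD4 and 3.28 and 3.79 FPKM in control. The wild type and control libraries overlapped and no comparison passed on the deposited scale. After median-of-ratios scaling EDEM1 was called higher in K178R than in wild type (log2 0.225, limma adjusted p = 0.0375).

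**Figure D3:**
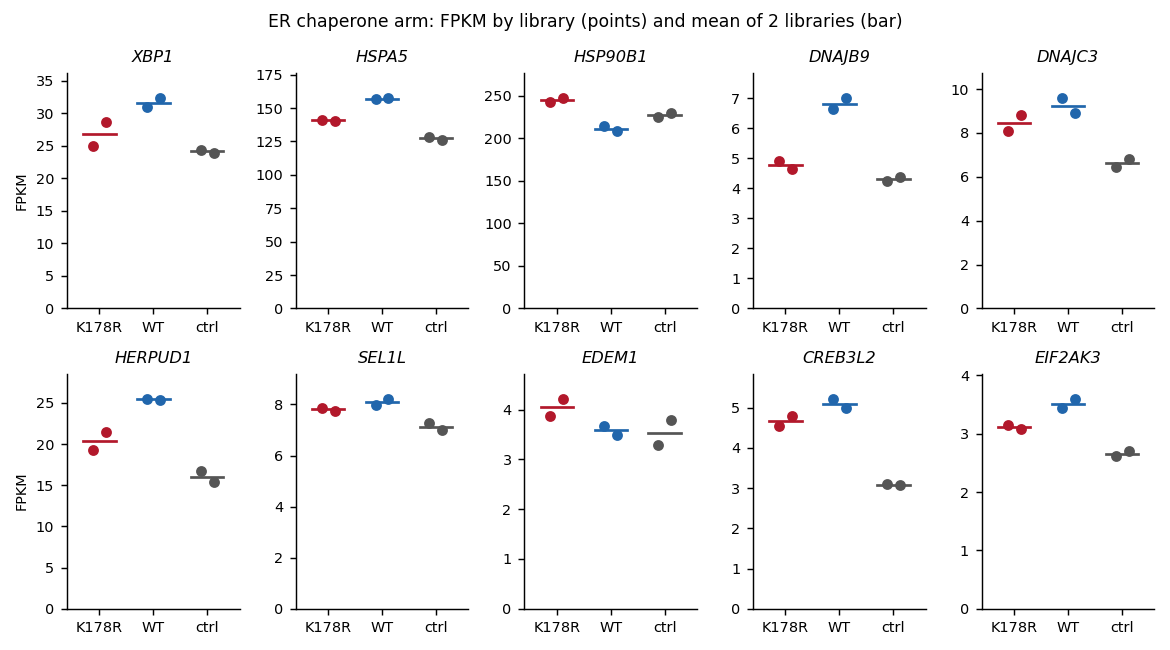
FPKM (y axis, from 0) of 10 ER chaperone arm genes in each library (points), with the mean of the 2 libraries of a line as a bar, for K178R, wild type TEAD4 (WT) and control (ctrl). HERPUD1, DNAJB9, XBP1 and HSPA5 are highest with wild type TEAD4, HSP90B1 is lowest there, and CREB3L2 is above control in both TEAD4 lines.

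Set side by side, members with an ER stress element in the promoter window did not share a direction. With wild type TEAD4, HSPA5, XBP1 and HERPUD1 were called higher, HSP90B1 and CANX lower, and CALR, PDIA6 and SDF2L1 were not called. Among the ER arm genes without a match in the window, CREB3L2, DNAJB9, DNAJC3, EIF2AK3 and SEL1L were called higher, and EDEM1, PDIA4 and ERN1 were not called. After median-of-ratios scaling SEL1L was no longer called, PDIA4 was called lower, and so were CALR and PDIA6 among the genes with a match. An absent match covers only these windows and these exact letters. No test was made of a difference between genes with and without a match.

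**Figure D4:**
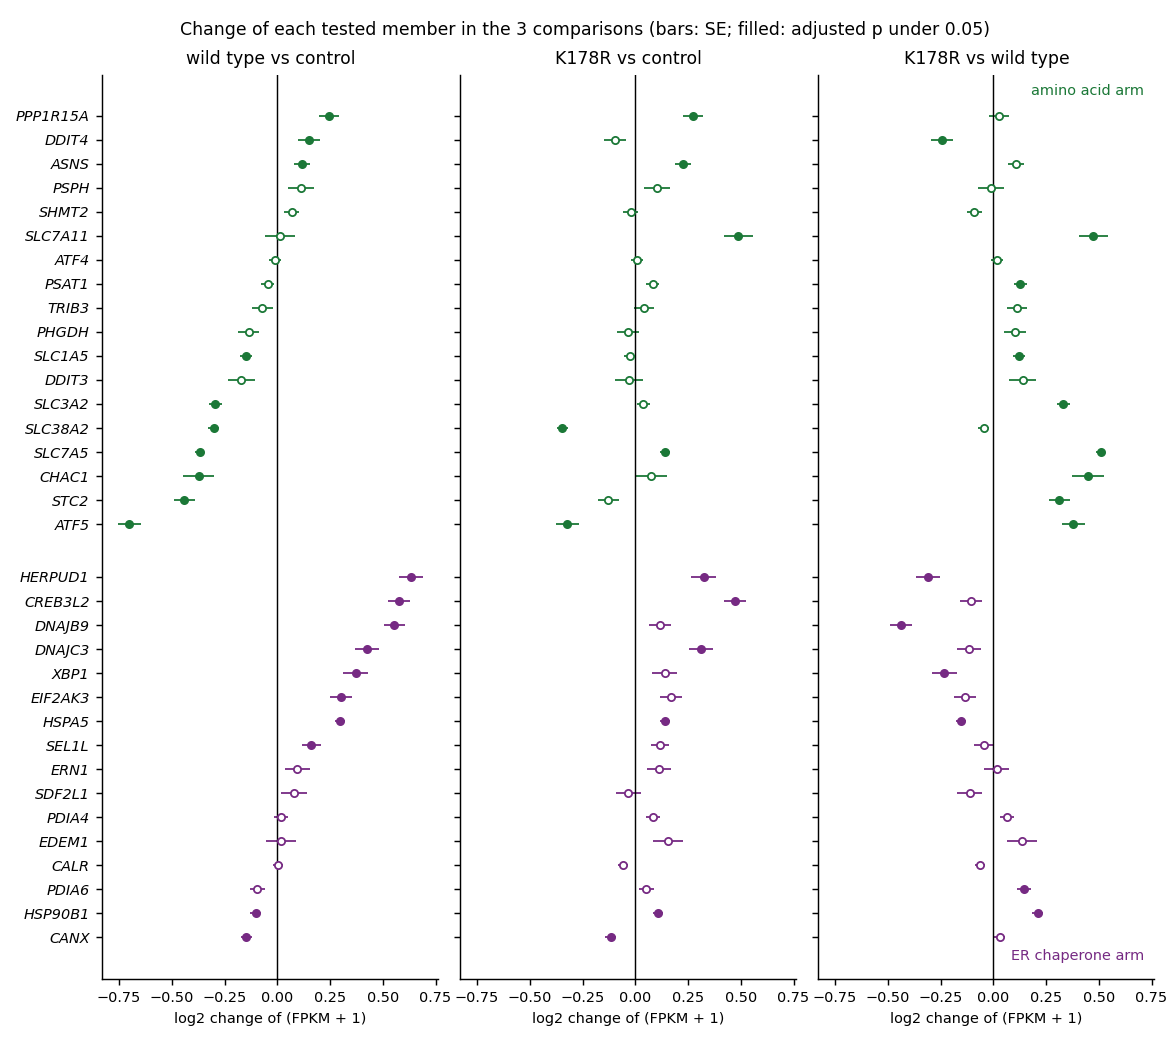
Change of the 34 tested members on the log2(FPKM + 1) scale (x axis) in the 3 comparisons, with bars of 1 SE and filled points at an adjusted p under 0.05; amino acid arm genes are in green and ER chaperone arm genes in purple, ordered by the change with wild type TEAD4. With wild type TEAD4 the green points reach from ATF5 at -0.70 to PPP1R15A at 0.25, and the purple ones from CANX at -0.15 to HERPUD1 at 0.63.

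Other genes of the same pathways were counted beside the members. Of 24 further genes of the integrated stress response, 20 were tested. With wild type TEAD4 against control, 8 (40%) were higher and 4 (20%) lower, beside 37.6% and 12.2% of all genes. With K178R against control, 5 (25%) were higher and 1 (5%) lower, beside 11.7% and 11.1%. In K178R against wild type, 5 (25%) were higher and 2 (10%) lower, beside 10.4% and 34.5%. After median-of-ratios scaling the balance with wild type TEAD4 turned over, to 4 higher and 7 lower, beside 22.4% and 25.3% of all genes. The counts were then 3 and 1 with K178R against control, beside 10.9% and 11.9%. In K178R against wild type they were 9 and 2, beside 22.8% and 19.7%. The cationic amino acid transporter SLC7A1 followed the pattern of SLC7A5, with 30.6 ± 0.456 FPKM in K178R, 23.9 ± 0.366 FPKM in wild type and 27.5 ± 1.61 FPKM in control. It fell with wild type TEAD4 (log2 -0.19, limma adjusted p = 0.00815) and rose with K178R (log2 0.15, limma adjusted p = 0.0474), the second close to the threshold. The stress factor ATF3 rose with wild type TEAD4 (log2 0.58) and was below wild type in K178R (log2 -0.40). The mitochondrial folate enzyme MTHFD2 fell in both lines (log2 -0.20 with K178R and -0.30 with wild type TEAD4), and CTH, which makes cysteine from cystathionine, rose in both (log2 0.53 and 0.34 in the same order). CBS and BCAT1 were listed at 0 in every library.

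Of 36 further genes of ER stress and ER folding, 34 were tested. With wild type TEAD4 against control, 17 (50%) were higher and 1 (2.94%) lower, beside the same 37.6% and 12.2% of all genes. With K178R against control, 5 (14.7%) were higher and 0 lower, beside 11.7% and 11.1%. In K178R against wild type, 2 (5.88%) were higher and 12 (35.3%) lower, beside 10.4% and 34.5%. After median-of-ratios scaling the counts with wild type TEAD4 were 9 higher and 10 lower, beside 22.4% and 25.3% of all genes. They were then 5 and 2 for K178R against control, beside 10.9% and 11.9%. For K178R against wild type they were 9 and 7, beside 22.8% and 19.7%, so here too the split followed the scale. ATF6B, a paralog of the sensor ATF6, rose with wild type TEAD4, with 8.22 FPKM in K178R, 13.4 FPKM in wild type and 7.82 FPKM in control (log2 0.71). ATF6 itself rose by log2 0.175. The factor CREB3L4 (log2 0.61), the COPII coat gene SEC24D (log2 0.59), the selenoprotein SELENOK (log2 0.49) and the HRD1 ligase gene SYVN1 (log2 0.38) rose as well. The BiP exchange factor HYOU1 rose in both lines (log2 0.18 with K178R and 0.13 with wild type TEAD4). The isomerase PDIA3 was higher in K178R than in control (log2 0.13) and wild type (log2 0.11). TXNDC5 was too (log2 0.18 and 0.21 in the same order), while the isomerases P4HB and PDIA5 were not called. All of these changes are on the deposited scale.

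Some members share exonic sequence with other genes in GENCODE 29, and nothing in the labels tells if strand was used in counting. The overlap covers 44.6% of the exonic bases of ASNS, 41.2% of DDIT4, 39.6% of DDIT3, 25.2% of PDIA6, 23.8% of SLC1A5 and 23.7% of ATF5. ATF4, ASNS and PSAT1 each have 4 pseudogenes named after them, and SLC7A5 has 2. How reads were divided among these copies is not known, and its part in the values was not tested.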

How the data were processed

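Per the labels' protocols, TruSeq reagents were used on total RNA to prepare the 6 HCT116 libraries. The authors deposited 1 table of FPKM values per library, per the file headers. The submitters' processing notes name Bowtie 0.12.2 and the build hg18. The program and annotation behind FPKM are not named in the sources used here. Of 20030 rows, 4 with a repeated identifier were left out. A gene was tested if 2 or more libraries reached 0.5 FPKM, which left 11445 genes, on the scale log2(FPKM + 1), the pseudocount being 1 FPKM, which understates changes of low genes. The fit used limma 3.58.1 with a mean-variance trend in R 4.3.3, over all 6 libraries and 3 group means, with 3 residual degrees of freedom. The test was two-sided, with Benjamini-Hochberg adjustment over all genes tested and a threshold of 0.05. The procedure was tested on simulated data. SDs and intervals describe 2 libraries per line, and the number of reads is unknown. Libraries were grouped by title.

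The members and gene lists were chosen with earlier results of these data known. Values per library are given for ATF4, DDIT3, XBP1, HSPA5 and the 8 other members of each arm with the largest change. The other pathway genes named were picked after their values were seen. Alternatives changed the pseudocount, filter, scaling, trend, groups in the fit, replicate block and control averaging, or left out each library. Protein sequences were not used here.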

Additional observations from a re-analysis of the deposited data

How the results depend on the processing

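The number of amino acid arm genes called higher with wild type TEAD4, 3, became 0 under median-of-ratios scaling and 1 under upper-quartile scaling, with no filter, without trend, with the replicate block and with the controls averaged, and that called lower, 7, became 12 under either scaling. In the ER arm the 2 lower genes became 5 (median of ratios), 4 (upper quartile) and 1 (no trend). For K178R against control, the 1 lower ER arm gene became 2 under upper-quartile scaling and 0 without trend or with the controls averaged. For K178R against wild type, the amino acid arm counts of 8 higher and 1 lower became 13 and 0 under either scaling, and the replicate block gave 2 lower. The ER arm counts of 2 and 4 became 5 and 2 under either scaling. Of all genes, upper-quartile scaling called 24.1% higher and 23.2% lower with wild type TEAD4. It called 10.6% and 12.7% for K178R against control, and 19.8% and 22% for K178R against wild type. Leaving out 1 library at a time gave, with wild type TEAD4, 1 to 3 higher and 7 to 8 lower in the amino acid arm and 7 to 8 higher and 1 to 3 lower in the ER arm. With K178R it gave 4 to 4 and 2 to 3 in the amino acid arm and 3 to 5 and 0 to 1 in the ER arm. K178R against wild type had 7 to 8 and 1 to 2, and 1 to 2 and 3 to 5. Under median-of-ratios scaling 8 members changed sign with wild type TEAD4, 1 with K178R against control and 5 in K178R against wild type. Of these, 3 were called on either scale, all with wild type TEAD4: ASNS (log2 -0.001), CALR (log2 -0.118) and PDIA4 (log2 -0.101). Under upper-quartile scaling CALR (log2 -0.103) was the 1 member called on either scale that changed sign. The cause was not tested. In all alternatives that could be fitted, 7 amino acid arm genes stayed lower and 7 ER arm genes higher with wild type TEAD4. Of the other counts, the replicate block changed 1, the amino acid arm genes lower with wild type TEAD4, to 8. Same-numbered libraries did not deviate together (correlations of -0.031 to 0.032 over 11445 genes). These correlations cannot tell whether same-numbered libraries shared a culture or a preparation.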
